A study of Mus musculus with 2 samples.

Results

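The genes described here are 32 genes known from the choroid plexus epithelium, of 55536 gene entries measured in total RNA of mouse left cerebral cortex. They were taken by symbol from a list chosen by the ratio of their counts between the sequenced animals and by knowledge of the tissue, so those ratios are a description and carry no test. All 32 symbols matched the annotation, and the genes lie on 13 chromosomes. The tissue came from 2 adult males, aged 8 to 10 months, of strain B6CASTF1/J, the first generation of B6 crossed with Cast. They are animals 2 and 4 in the labels, here replicates 1 and 2 of a single group, and there is no condition to compare. One donor label is given for both, so only the animal numbers mark them as separate mice. Each library was made from 300 ng of RNA with ribosomal RNA reduced and ERCC spike-in RNAs added, and they held 26925514 and 30143684 expected counts.

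The choroid plexus is a vascular fold that hangs in the brain ventricles and is not a part of the cortex itself. Its epithelium secretes cerebrospinal fluid by moving ions, bicarbonate and water from blood to ventricle, closes the blood-fluid barrier with tight junctions, and releases carrier proteins and growth factor antagonists into the fluid. Its best known product is transthyretin, the carrier of thyroid hormone and retinol-binding protein. Several of its genes are also made by other cells that a cortex dissection can hold, among them those of oligodendrocytes, vessels and meninges.

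Most of the genes were higher in replicate 1, and 16 of the 32 were at least 4-fold higher. By log2 ratio of scaled counts, 26 of the 32 were at least 2-fold higher in replicate 1 and 0 were at least 2-fold lower. Of the 18274 genes averaging 10 counts or more, 1.6% were at least 2-fold higher and 1.92% at least 2-fold lower. The median log2 ratio was 1.96 over the 32 genes and -0.0075 over those 18274 genes, of which the central 95% lay between -0.91 and 0.82. Since the genes were chosen with this ratio in view, nothing is read from either contrast or from the shares that follow. At least 8-fold higher by both deposited quantifications were 22 (0.12%) of the 18274. These 22 include 9 of the 32 members. Of the 21 members averaging 50 counts or more, 16 were at least 2-fold higher, beside 0.536% of all 14175 such genes. In bulk tissue, fewer cells of a type and less RNA per cell cannot be told apart.

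The level itself was low for most of them. The median over the 32 genes was 3.13 TPM in replicate 1 and 0.545 TPM in replicate 2 (TPM is a length-normalised transcript abundance). At 1 TPM or more stood 27 genes in replicate 1 and 12 in replicate 2. In replicate 2 the level was under 10% of that in replicate 1 for 11 genes, 10 to 30% for 7, 30 to 60% for 8, and 60% or more for 6. The genes thus spread from near loss in replicate 2 to equal levels in both animals.

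**Figure D1:**
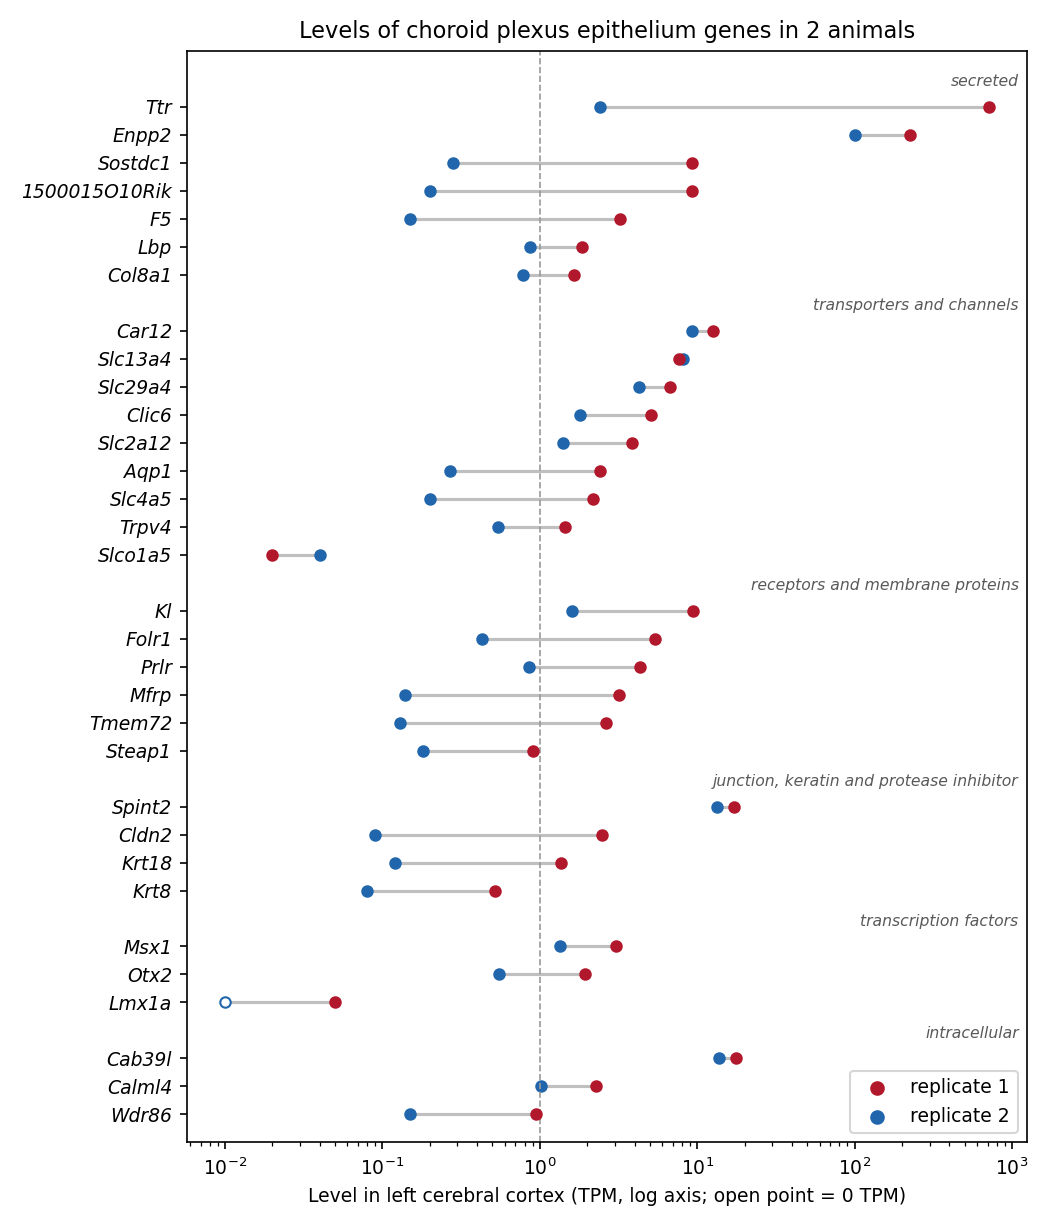
Level of each of the 32 genes in TPM on a log axis, by role, with replicate 1 in red and replicate 2 in blue; the dashed line is at 1 TPM and an open point is a value of 0. Ttr spans 711 to 2.40 TPM, while Slc13a4, Spint2 and Cab39l stand close together in the 2 animals.

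Secreted proteins held the widest spread. All 7 were at least 2-fold higher in replicate 1, with a median log2 ratio of 4.34. Ttr, transthyretin, had 13589 expected counts (711 TPM) in replicate 1 and 50 (2.40 TPM) in replicate 2. It ranked 66th among all genes in the first animal and 13248th in the second. The ratio of its scaled counts was 305-fold, with a 95% counting interval of 231 to 411; such intervals, here and below, are exact and cover counting error only. Ttr alone made up 77.8% of the summed difference in TPM over the 32 genes, Enpp2 13.6% and the other 30 together 8.62%.

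Enpp2, autotaxin, which makes lysophosphatidic acid and is also known from oligodendrocytes, behaved otherwise. Its level was 225 and 101 TPM in replicates 1 and 2 (mean 163 ± 87.8 SD, n = 2), from 10143 and 5005 counts. Its ratio was 2.28-fold (2.20 to 2.35), and it was the most abundant of the 32 genes in replicate 2, where it held 61.0% of their summed TPM. The gene lies on chromosome 15 (mm10, 54838901 to 54952892, minus strand). Its high level in both animals sets it apart from Ttr, which held 66.0% of the summed TPM in replicate 1 and 1.45% in replicate 2.

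Further secreted products were nearly absent from replicate 2. 1500015O10Rik, which encodes the secreted peptide precursor augurin, stood at 9.28 and 0.200 TPM (131 and 3 counts) in replicates 1 and 2. Sostdc1, an antagonist of BMP and Wnt signalling, stood at 9.26 and 0.280 TPM (274 and 9 counts). F5, coagulation factor V, stood at 3.22 and 0.150 TPM (415 and 21 counts). The ratios of their scaled counts were 49.0-fold (16.4 to 241), 34.2-fold (17.8 to 75.6) and 22.2-fold (14.3 to 36.2). Lbp, which binds bacterial lipopolysaccharide, and Col8a1, a collagen VIII chain also known from vessels, differed far less, at 1.85 and 0.870 TPM and at 1.65 and 0.780 TPM. Their intervals, 1.69 to 4.64 and 1.80 to 3.32, lay above 1 and reached below 2.

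All 6 receptors and other membrane proteins were at least 2-fold higher in replicate 1, 5 of them also by the second quantification. Kl, klotho, is a membrane protein and co-receptor for FGF23 whose shed form circulates. It lies on chromosome 5 (150952607 to 150993817, plus strand) and is shown with the 250 bases of RefSeq sequence before its start (GRCm38.p6, chr5:150952357-150952606, plus strand), because it had the most counts of the group in both animals by the first quantification.
Kl upstream: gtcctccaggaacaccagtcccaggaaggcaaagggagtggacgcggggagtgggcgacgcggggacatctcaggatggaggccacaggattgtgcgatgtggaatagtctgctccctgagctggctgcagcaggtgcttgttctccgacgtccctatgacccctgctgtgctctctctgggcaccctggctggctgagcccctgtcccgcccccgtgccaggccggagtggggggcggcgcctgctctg
Kl was at 9.39 and 1.60 TPM in replicates 1 and 2, from 830 and 155 counts, a ratio of 6.01-fold (5.06 to 7.19). By the second quantification, its log2 ratio was 2.31 against 2.57 by the first. Both quantifications placed it above 4-fold.

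Mfrp, a membrane protein with a frizzled-like domain, was nearly absent from replicate 2. The upstream sequence of Mfrp (GRCm38.p6, chr9:44101520-44101728, plus strand), cut off before its first annotated transcribed base, is shown because it holds the letters TAATCC, a core motif bound by the transcription factor OTX2, on the minus strand. Capitals mark the match.
Mfrp upstream: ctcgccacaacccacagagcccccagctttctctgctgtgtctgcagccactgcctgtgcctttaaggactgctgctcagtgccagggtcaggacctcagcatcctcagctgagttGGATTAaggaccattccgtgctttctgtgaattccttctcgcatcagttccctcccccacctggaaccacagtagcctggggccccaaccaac
A RefSeq window was matched for 25 of the 32 genes. The other 7, Ttr, Enpp2, Sostdc1, 1500015O10Rik, Folr1, Clic6 and Lbp, had none and were not searched. TAATCC on either strand occurred in the 250 bases before a start for 2 of these 25, Mfrp and Otx2 itself. The Otx2 window with the match, 1 of 4 for that gene, lies wholly within annotated transcript. Of the windows of these genes 6.25% held it, and of all 32851 windows in the table also 6.25%. In the windows searched the motif was thus no more frequent than in windows at large. The share for these genes rests on 2 of 32 windows. It describes these letters in these windows and nothing of the factor or of the genes without a window.

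Mfrp stood at 3.20 and 0.140 TPM, from 194 and 4.6 counts, a ratio of 43.6-fold (18.4 to 136). The second quantification gave it 230 and 16.2 estimated counts. Mfrp overlaps C1qtnf5 on the same strand, which had 193 and 174 counts, and Rnf26 on the other strand, with 614 and 649 counts. No source used here says if counting used the strand, which leaves counts in such overlaps uncertain. These 2 neighbours were at close to the same level in both animals while Mfrp was not.

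Folr1, folate receptor alpha, which carries folate into the cerebrospinal fluid, stood at 5.40 and 0.430 TPM from 76 and 3 counts. Prlr, the prolactin receptor, stood at 4.34 and 0.850 TPM from 417 and 97 counts. Their ratios were 28.4-fold (9.37 to 141) and 4.83-fold (3.86 to 6.09), so the first rests on 3 counts in replicate 2 and the second is well counted in both animals. Steap1, of a family of metalloreductases, stood at 0.910 and 0.180 TPM from 18 and 4 counts.

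For Tmem72, a transmembrane protein, the quantifications disagreed. By the first it stood at 2.62 and 0.130 TPM from 364 and 31 counts, a log2 ratio of 3.63. The second assigned it 2853 and 3037 estimated counts, a log2 ratio of 0.08. Nearly all of the latter were assigned to Tmem72-201, an annotated transcript of 17152 bases. Whether Tmem72 differed between the animals cannot be told from these files.

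Transporters and channels were the most mixed group, with 5 of 9 at least 2-fold higher in replicate 1 and a median log2 ratio of 1.09. Slc4a5, a sodium bicarbonate cotransporter of the epithelium, had 184 counts in replicate 1 and 4 in replicate 2, a ratio of 51.7-fold (19.8 to 192). In TPM the difference was smaller, 2.17 against 0.200, because some of the 4 counts were assigned to short transcripts. Aqp1, the water channel of the apical membrane, stood at 2.43 and 0.270 TPM from 108 and 13 counts, a ratio of 9.33-fold (5.23 to 18.1). Both genes were under 0.3 TPM in replicate 2.

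The other ion and solute carriers stood closer in the 2 animals. Clic6, an intracellular chloride channel protein, stood at 5.11 and 1.80 TPM (329 and 117 counts). Slc2a12, the glucose transporter GLUT12, stood at 3.85 and 1.40 TPM (245 and 109 counts). Trpv4, an osmosensitive and mechanosensitive cation channel, stood at 1.45 and 0.540 TPM (63 and 32 counts). Their ratios were 3.16-fold (2.55 to 3.93), 2.52-fold (2.01 to 3.19) and 2.21-fold (1.42 to 3.50), and Trpv4 was below 2-fold by the second quantification, with a log2 ratio of 0.90.

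Under 2-fold were the remaining 4. Slc29a4, a monoamine transporter, stood at 6.74 and 4.27 TPM (216 and 147 counts, 1.65-fold, 1.33 to 2.05). Car12, a membrane carbonic anhydrase, stood at 12.7 and 9.26 TPM (783 and 599 counts, 1.47-fold, 1.32 to 1.64). Slc13a4, a sodium-coupled sulfate carrier also known from the meninges, stood at 7.71 and 8.16 TPM (446 and 502 counts), a ratio of 1.00 (0.88 to 1.14). Slco1a5, an organic anion transporter, had 1 and 2 counts and is at the edge of detection in both animals.

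Of the junction and cytoskeletal genes, 3 of 4 were at least 2-fold higher in replicate 1. Cldn2, a tight junction protein that forms cation pores, stood at 2.49 and 0.09 TPM from 129 and 5 counts, a ratio of 29.0-fold (12.1 to 90.7). Krt18 and Krt8, partner keratins of simple epithelia, had 32 and 3 and 17 and 3 counts, with ratios of 11.98-fold (3.75 to 61.1) and 6.36-fold (1.84 to 33.9). These keratin genes lie 23697 bases apart on chromosome 15. Spint2, an inhibitor of serine proteases, was the exception: it stood at 17.2 and 13.4 TPM from 345 and 305 counts, a ratio of 1.27-fold (1.09 to 1.49).

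Transcription factors were present at a few TPM or less. Otx2, a homeobox factor needed to form and maintain the choroid plexus, stood at 1.95 and 0.550 TPM from 54 and 12 counts, a ratio of 5.05-fold (2.67 to 10.4). Msx1, another homeobox factor, stood at 3.05 and 1.34 TPM from 98 and 47 counts, a ratio of 2.34-fold (1.64 to 3.39). Lmx1a, a marker of the roof plate from which the plexus forms, had 3 counts in replicate 1 and 0 in replicate 2. The second quantification gave Lmx1a 3.43 and 3.36 estimated counts, so its ratio is not interpretable.

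Among the intracellular proteins, Calml4, a calmodulin-like protein, had 31 and 7 counts (2.26 and 1.02 TPM). By the second quantification it had 27.1 and 15.0 estimated counts, a log2 ratio of 0.93 against 2.02 by the first. Wdr86, a WD-repeat protein, had 42 and 11 counts (0.950 and 0.150 TPM). Cab39l, a scaffold protein that binds the kinases LKB1 and STK39, stood at 17.6 and 13.8 TPM from 777 and 663 counts, a ratio of 1.32-fold (1.19 to 1.46). Only Cab39l of these 3 was above 10 TPM, and it was so in both animals.

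**Figure D2:**
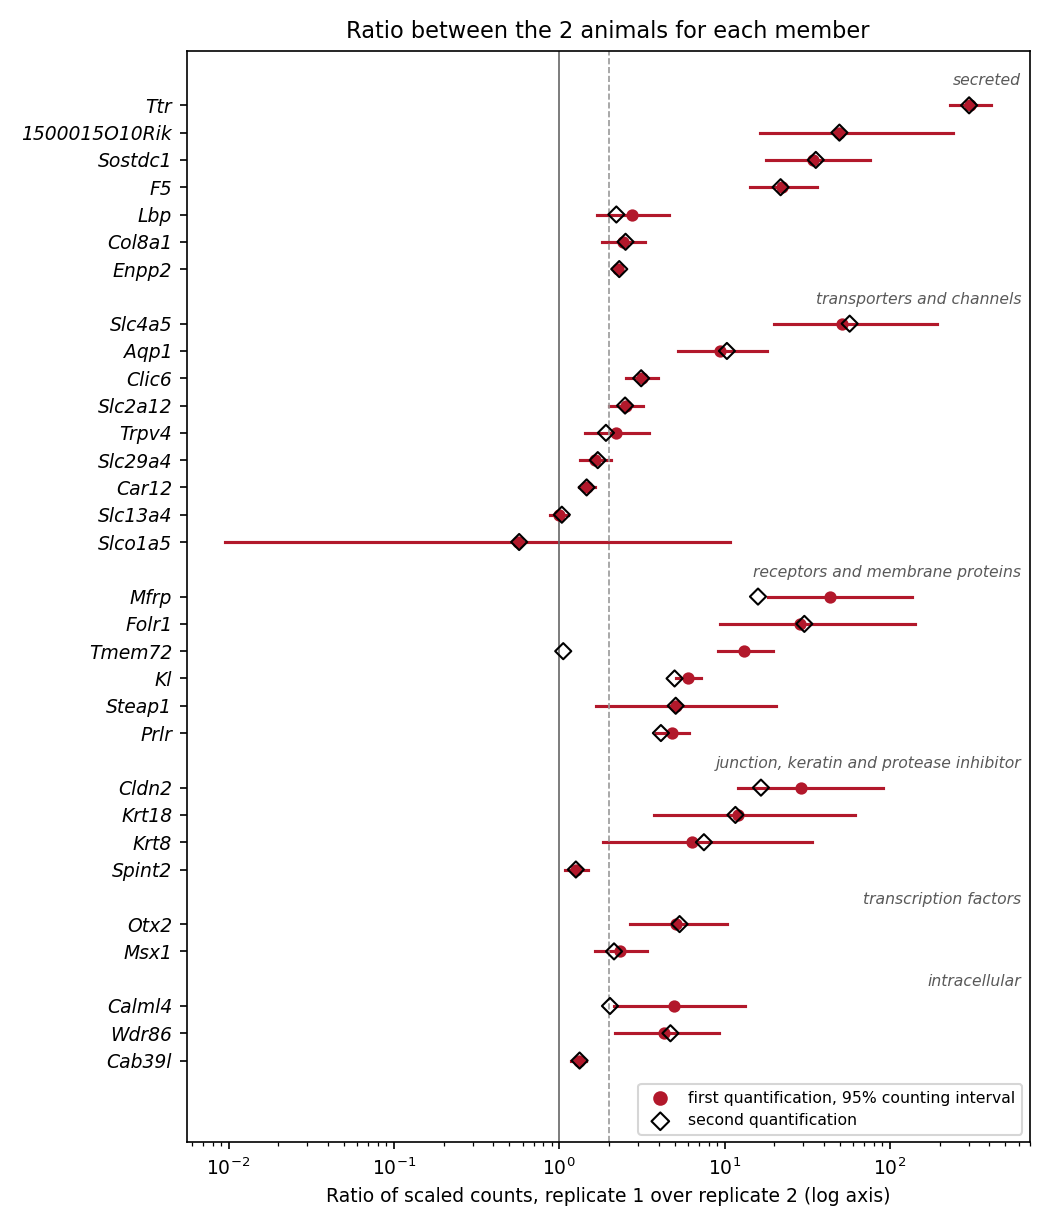
Ratio of scaled counts, replicate 1 over replicate 2, on a log axis for the 31 genes with a count in replicate 2, with 95% counting intervals in red and the second quantification as open diamonds; the solid line is at 1 and the dashed line at 2. The quantifications part most for Tmem72, at 13.2-fold by the first and near 1 by the second.

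The counting interval of the ratio lay above 1 for 29 of the 32 genes and above 2 for 19. Not above 1 were Slc13a4, Slco1a5 and Lmx1a. The sign of the ratio was the same in both quantifications for 31 genes, and 22 were at least 2-fold higher by the second, beside 1.65% of the 18274 genes. Of the 26, the 4 that fell under 2-fold there were Tmem72, Calml4, Trpv4 and Lmx1a.

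To separate genes restricted to the epithelium from those also made in cortex or its meninges, the 32 were divided by textbook knowledge and by their level in replicate 2. From background knowledge, 9 are also made by other cells of a cortex dissection: Enpp2, Cab39l, Spint2, Slc2a12, Car12, Slc29a4, Col8a1, Slc13a4 and Trpv4. Of these 9, 7 stood at 1 TPM or more in replicate 2, and their summed level was 294 TPM in replicate 1 and 153 TPM in replicate 2. The other 23 genes summed to 783 and 12.9 TPM. The median log2 ratio was 0.71 over the 9 and 2.57 over the 23. At least 2-fold higher in replicate 1 were 4 of the 9 and 22 of the 23, the exception being Slco1a5. The 22 include Lmx1a, with 3 and 0 counts. The 32 genes and the list of 9 were set with earlier results of these data known, so nothing is read from this contrast.

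Outside the list of 9, 5 genes still reached 1 TPM in replicate 2. They were Ttr at 2.40, Clic6 at 1.80, Kl at 1.60, Msx1 at 1.34 and Calml4 at 1.02 TPM. All 5 were at least 2-fold higher in replicate 1. Ttr had the widest ratio of the 32 and yet remained the seventh most abundant of them in replicate 2.

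Where a gene has annotated transcripts that keep an intron or part of it, its coding and intron-keeping transcripts could be read apart. Such noncoding transcripts are annotated for 15 of the 32 genes. In these 15 genes, coding transcripts had 13702 and 7080 counts, a ratio of 2.17-fold (2.11 to 2.24), and retained-intron transcripts had 498 and 380, a ratio of 1.47-fold (1.29 to 1.69). Without Enpp2, which holds most of these counts, coding transcripts had 3910 and 2292 counts, a ratio of 1.92-fold (1.82 to 2.02), and retained-intron transcripts 157 and 164, a ratio of 1.08-fold (0.86 to 1.36). By the second quantification the 15 genes had 13887 and 7352 coding and 943 and 559 retained-intron counts. Without Enpp2 these were 4125 and 2427, and 295 and 281. In Enpp2 the retained-intron log2 ratio was the larger there, 1.38 against 1.15, but the smaller by the first, 0.82 against 1.20. The size of the gap thus depends on the quantification. The coding log2 ratio was the larger in 12 of the 15 genes, and in 11 by the second quantification. It was the larger in 57.4% of all 8144 genes with both kinds that averaged 10 counts or more. The genes were chosen on counts that are nearly all coding, so nothing is read from the coding ratio being the larger. The exceptions by the first quantification were Msx1, Trpv4 and Slco1a5. The log2 ratio of the retained-intron form itself was -1.42 in Slc13a4 and -0.83 in Col8a1, and 1.85 in Msx1 and 1.66 in Trpv4. The intron-keeping counts are few for most of these genes, and the split of reads between transcripts is an estimate.

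Kl and Wdr86 are given as examples, chosen after their values were seen. Below are 60 bases of each transcript at the exon end where the intron-keeping transcript runs on, from the GENCODE M21 transcript sequences. The first 30 bases, in small letters, are the end of the shared exon. Capitals mark the next exon in the spliced form and the start of the intron, with its GT, in the other. The exon ends at position 150982771 of chromosome 5 (plus strand) in Kl and at 24715526 of chromosome 5 (minus strand) in Wdr86.
Kl-201 spliced: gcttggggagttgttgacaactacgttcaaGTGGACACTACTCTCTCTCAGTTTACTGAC
Kl-202 unspliced: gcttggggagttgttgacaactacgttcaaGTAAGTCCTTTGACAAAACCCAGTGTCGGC
Wdr86-201 spliced: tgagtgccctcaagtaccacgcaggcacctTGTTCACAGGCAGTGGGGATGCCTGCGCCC
Wdr86-203 unspliced: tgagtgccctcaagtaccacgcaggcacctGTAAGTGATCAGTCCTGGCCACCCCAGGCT
Coding Kl-201 had 821 counts in replicate 1 and 147 in replicate 2, while Kl-202, which runs on into the intron of 5621 bases after exon 3 and ends within it, had 8.97 and 7.88. Coding Wdr86-201 had 33.2 and 1.84 counts, while Wdr86-203, which keeps the intron of 2572 bases after exon 4, had 8.85 and 9.16. The second quantification gave Kl-202 53.4 and 57.5 estimated counts, 5.06% and 24.8% of the gene, and Wdr86-203 10.8 and 10.1. The level of Kl-202 thus depends on the quantification, while under both the coding form of each gene was the higher in replicate 1. The leading transcript of Wdr86 was Wdr86-201 in replicate 1, with 87.6% of the gene, and Wdr86-203 in replicate 2, with 72.6%.

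**Figure D3:**
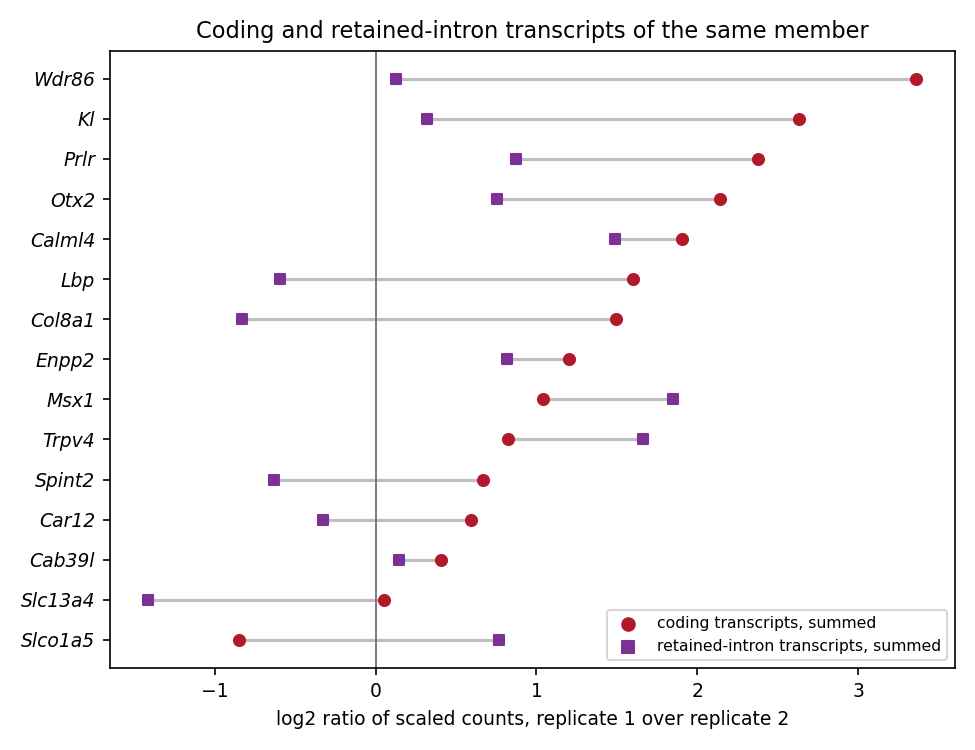
log2 ratio of scaled counts, replicate 1 over replicate 2, for coding (red points) and retained-intron (purple squares) transcripts of the 15 genes that have both kinds. Points are log2 values with a prior count, which draws forms with few counts toward 0; the retained-intron form is at -1.42 in Slc13a4 and at 1.85 in Msx1.

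Other transcript forms also differed in their ratio. Of the 25 genes with more than 1 transcript, 24 had counts in both libraries, and 16 of these had the same leading transcript in both. By the second quantification it was the same in 15 of 25. With at least 10 counts in each library, the leading transcript by the first quantification was the same in 14 of 17. The share over all genes is not given here, so nothing is read from these counts. For Car12, Car12-201 had 188 and 32.9 counts, while Car12-202, which led in both animals, had 571 and 531. For Spint2, the leading coding transcript Spint2-202 had 307 and 195 counts, and Spint2-203, annotated for nonsense-mediated decay, had 17.3 and 63.4. The second quantification gave Car12-201 146 and 107 estimated counts and Car12-202 618 and 483, so how Car12's difference divides between its forms is not settled. For Spint2 it gave 291 and 205 to Spint2-202 and 37.1 and 62.4 to Spint2-203, in the same directions as the first.

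Genes that overlap the 32 on the annotation were looked at in each case. Another gene overlaps 13 of them, and in 5 cases that other gene averaged 10 counts or more. Beside Mfrp, these were Folr1 with Anapc15 (343 and 377 counts), Cab39l with Cdadc1 (1040 and 1195), Slc2a12 with Tbpl1 (1241 and 1395) and Enpp2 with Gm26684 (27.4 and 43.2), all on the opposite strand. None of these 6 overlapping genes was 2-fold different between the animals.

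Most other genes known from the choroid plexus epithelium stood within 2-fold, though this list was not divided by whether other cells of a cortex dissection also make them. Of 28 such genes, 4 were at least 2-fold higher in replicate 1 by log2 ratio, 1 was at least 2-fold lower and the median log2 ratio was 0.27. Of the 18274 genes averaging 10 counts or more, 1.6% were at least 2-fold higher and 1.92% at least 2-fold lower. By any margin 22 of the 28 were higher in replicate 1, some by little, such as Slc39a12 with a log2 ratio of 0.046. The median log2 ratio over the 18274 genes was -0.0075, so those were not mostly higher. The exact share of those genes is not given here, and nothing is read from the 22. Kcne2, a potassium channel subunit of the epithelium, had 65 counts in replicate 1 and 0 in replicate 2, at least 24.3-fold higher against a floor of 3 counts in replicate 2, and with an exact counting interval that starts at 19.2-fold. Kcnj13, an inward rectifier potassium channel, stood at 6.51 and 2.01 TPM (134 and 45 counts). The other 2 were Slc16a8, a lactate carrier, with 9 and 1 counts and Otx2os1, a noncoding RNA opposite Otx2, with 2 and 0. At the top by level, Igfbp2 stood at 31.6 and 25.4 TPM and Vat1l at 25.95 and 24.2 TPM, within 2-fold.

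Of the 17 genes for ion and water transport in fluid secretion, 5 belong to the 32 (Slc4a5, Car12, Aqp1, Clic6 and Trpv4). Of the remaining 12, 2 were at least 2-fold higher in replicate 1, Kcne2 and Kcnj13 again. Atp1b1, a sodium pump subunit used widely in cortex, had the highest level of the 12, at 757 and 801 TPM.

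Markers of other cells that a cortex dissection can hold were compared in the same way. The 2-fold limit was judged on the log2 ratio with its prior count. Under that limit, yet above 2-fold by plain scaled counts, were Ccdc153 (2.07-fold), Ak7 (2.01-fold), Slc47a1 (2.03-fold), Pf4 (2.25-fold) and Esm1 (3.37-fold). Their counts were, in that order, 24 and 13, 34 and 19, 67 and 37, 12 and 6, and 3 and 1. The ependyma list summed to 19.2 and 16.9 TPM in replicates 1 and 2, with 1 of 12 genes at least 2-fold higher (Spag16, 43 and 23 counts, not by the second quantification) and 1 lower (Cfap126, 2 and 8 counts). By any margin 10 of the 12 were higher in replicate 1. The ependyma median log2 ratio was 0.41, and 0.36 by the second quantification, beside -0.0075 over the 18274 genes. Genes of plexus stroma and fenestrated vessels summed to 118 and 97.5 TPM with 0 of 10 at 2-fold, and those of meningeal fibroblasts, some of them shared with the stroma list, to 39.4 and 41.8 TPM with 0 of 9. Border macrophage genes summed to 5.99 and 4.80 TPM, with 2 of 7 at least 2-fold higher (Lyve1, 24 and 11 counts, and Ms4a7, 7 and 0), and 2 lower (Clec12a, 3 and 9, and Cd209f, 1 and 7.2). By the second quantification 0 of these 7 were 2-fold higher, and Ms4a7 had 16.4 and 11.9 estimated counts. Blood genes summed to 577 and 414 TPM, with 0 of 5 at 2-fold. No gene of the lists for neurons, astrocytes, oligodendrocytes or microglia (28 genes) was 2-fold different, and their list medians lay between -0.05 and 0.04 on the log2 scale. Nearest to the limit was Opalin of the oligodendrocyte list, lower in replicate 1, with 147 and 326 counts and a log2 ratio of -0.97. The part of ependyma, stroma, meninges or blood in the ratios of the 32 genes was not tested.

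**Figure D4:**
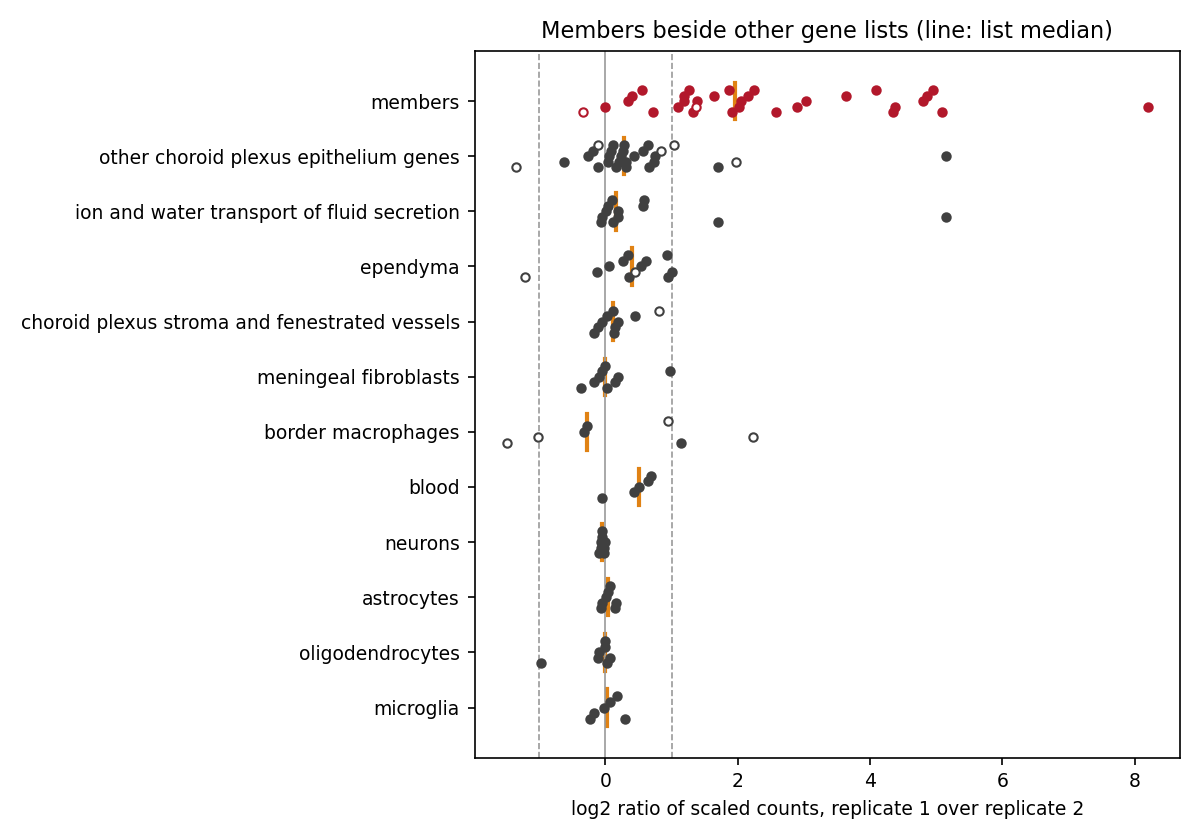
log2 ratio of scaled counts, replicate 1 over replicate 2, for the 32 genes (red) and 11 other gene lists without them (grey), each point a gene, open where its mean is under 10 counts, with the list median as an orange line and dashed lines at 2-fold. The median is 1.96 for the 32 genes and between -0.28 and 0.51 for the other lists.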

How the data were processed

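Total RNA of 2 left cortex libraries was analysed. For each library the authors deposited gene and transcript tables with expected counts, TPM and FPKM, and each transcript's percent of its gene, derived from alignments to the transcriptome (mm10, GENCODE M21), and a second transcript table with estimated counts and TPM derived from the reads themselves (replicate 1 in 2 read files, replicate 2 in 1), as the notes beside the files state. Programs, versions and use of the strand were not given in the sources used here.

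Library sizes without spike-ins, tRNA, phiX and 356 ribosomal RNA genes were 24688669 and 27440152; spike-ins were 0.261% and 0.275% of counts. Expected counts were rounded, and log2 ratios, always replicate 1 over replicate 2, used log CPM after TMM scaling, with 2 as the prior count (edgeR 4.0.16, R 4.3.3, Python 3.11.15). Ratios of scaled counts have exact 95% binomial intervals, and the floor for a count of 0 is 3 counts. The second quantification was compared on the count scale, summed per gene. With 1 library per animal no test was made. The calculation was tested on simulated data. The members, gene lists and naming rule were chosen with earlier results of these data known. All members may be named; from other lists, the 2 highest and those at least 2-fold different by both quantifications are named, and a few others were chosen after their values were seen. Not every gene so named is reported here. Alternatives were DESeq2 1.42.0 size factors, spike-in scaling, prior counts of 0.5 and 5, TPM with a pseudocount of 0.1, FPKM, the second quantification, count minimums of 10 and 50, other TPM limits and each animal alone. Promoter windows are RefSeq's (GRCm38.p6), searched for TAATCC on both strands.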

Additional observations from a re-analysis of the deposited data

How the results depend on the processing

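The count of 26 genes at least 2-fold higher in replicate 1 was between 22 and 26 under the other scalings, prior counts, TPM and the second quantification; it was 16 among members averaging 50 counts or more, where fewer genes are counted. The median log2 ratio lay between 1.65 and 2.25. The median level was 0.545 TPM in replicate 2 alone and 3.13 TPM in replicate 1 alone. With the limit at 2 TPM, 7 genes in place of 12 counted as present in replicate 2. With the limit at 0.5 TPM there were 17, and by TPM of the second quantification 16. Single ratios were recomputed 192 times: 183 kept their value within counting error, 6 moved and 3 changed sign. All 3 were Slc13a4, at 0.0013 with DESeq2 size factors, 0.068 with spike-in scaling and 0.052 by the second quantification, all on the log2 scale and close to 0. The cause was not tested. With 1 library per animal, a difference between animals and a difference between dissections or libraries cannot be told apart, and ratios that rest on under 10 counts in replicate 2 have wide intervals. No paired analysis was possible because there is 1 group.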
